A study of Sorghum bicolor and Setaria italica and Zea mays with 20 samples.

Results

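The open chromatin of *Z. mays* bundle sheath was set against that of the whole leaf, DNaseI-hypersensitive site (DHS) by DHS and chromosome by chromosome. The members were the DHSs and digital genomic footprints (DGFs) of the 2 maize tissues on chromosomes 1 to 10, from 4 of the 20 samples of the series. In all, the 2 maize tissues contributed 92756 of the 281868 DHSs of the series, and 48547 bundle-sheath and 43539 whole-leaf DHSs lay on chromosomes 1 to 10. The study mapped DNaseI cutting in leaves of grasses that use C3 or C4 photosynthesis. Both maize tissues came from seedlings at 18 days, harvested 4 to 6 h after the lights came on. The labels name the third leaf as the source, whereas the methods also name the fourth. Bundle-sheath strands were separated mechanically with a blender and a filter, and each biological replicate combined the leaves of many plants. Each tissue had 2 replicates, which the authors pooled before they deposited a single list, so no value below has a replicate error and no difference between tissues could be tested.

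In C4 leaves such as those of maize, carbon fixation is divided between mesophyll cells, which capture CO2 first, and bundle-sheath cells around the veins, which hold Rubisco and the Calvin-Benson-Bassham cycle. Where a nucleosome is displaced, for example by transcription factors, DNaseI cuts the exposed DNA more often and the stretch appears as a DHS. A protein bound inside such a stretch protects a few bases, and the gap in cutting it leaves is called as a DGF. A whole leaf contains bundle-sheath cells as well as mesophyll, epidermis and vein, so the whole-leaf list includes bundle-sheath chromatin diluted by that of other cells. No maize gene annotation was used here, so regions are given by position in assembly AGPv3 without genes, and the tissue labels were not checked against marker genes.

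The bundle-sheath list held 5008 more DHSs than the whole-leaf list on chromosomes 1 to 10, a ratio of 1.12, and had more on each of the 10 chromosomes. Bundle-sheath DHSs were narrower at the median, with a median width of 1690 bp compared with 1792 bp in whole leaf. They covered 102.9 Mb in all, compared with 96.0 Mb. The enrichment of DNaseI reads over background that MACS2 gave each DHS, referred to below as fold enrichment, had a median of 8.03 in bundle sheath and 9.44 in whole leaf. The ratio of DHS numbers ran from 1.08 on chromosome 1 to 1.19 on chromosome 10, with chromosome 7 next at 1.16. The lists carry no read numbers, and the read totals in the study's text were not used here. DHS numbers and fold enrichment both move with depth, and the part of depth in these differences was not tested.

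Most open sites of either tissue were open in the other. At an overlap of 1 bp or more, 35228 bundle-sheath DHSs had a whole-leaf counterpart, or 72.6% (95% Wilson interval 72.2% to 73.0%). Of the whole-leaf DHSs, 35159 had a bundle-sheath counterpart, or 80.8% (80.4% to 81.1%). With the bundle-sheath list limited to its 43539 highest fold enrichments, the length of the whole-leaf list, the shares were 74.9% and 75.2%. Lists of equal length that match mostly one to one have nearly equal shares by construction, so the gap between 72.6% and 80.8% follows from the lengths of the lists. These intervals, and those below, cover counting error only and treat DHSs as independent. The threshold of 1 bp excluded few near misses. Among 36421 overlapping pairs, 16 overlapped by 50 bp or less, the smallest by 5 bp, whereas 1 unmatched bundle-sheath DHS and 3 unmatched whole-leaf DHSs lay within 50 bp of a DHS of the other tissue. The median distance from an unmatched DHS to the nearest DHS of the other tissue was 12500 bp for bundle sheath and 5048 bp for whole leaf.

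Unmatched DHSs were narrower and ranked lower than matched ones in both tissues. To compare lists whose fold enrichments have different ranges, each DHS was given its percentile rank within its own list, from 0 for the lowest to 100 for the highest fold enrichment. Unmatched bundle-sheath DHSs had a median width of 1083 bp and a median rank of 27.6, compared with 2000 bp and 61.1 for matched ones. In whole leaf the values were 1262 bp and 21.2 for unmatched and 1945 bp and 58.1 for matched DHSs.

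The matched share varied more between chromosomes in bundle sheath than in whole leaf. In bundle sheath it was lowest on chromosome 10, at 68.7% (67.2% to 70.1%), and on chromosome 7, at 69.7% (68.2% to 71.1%). It was highest on chromosome 1, at 75.5% (74.5% to 76.5%), and on chromosome 8, at 74.4% (73.1% to 75.7%). The intervals of chromosomes 10 and 1 did not overlap. These were picked as the lowest and highest of 10, and the intervals cover counting error only. In whole leaf the share ran from 78.6% on chromosome 2 (77.5% to 79.7%) to 81.7% on chromosome 9 (80.3% to 82.9%). The 2 chromosomes with the lowest bundle-sheath share had the highest ratios of bundle-sheath to whole-leaf DHSs. Matched numbers were nearly equal in both tissues, so where whole-leaf shares are alike a higher ratio lowers the bundle-sheath share by construction.

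**Figure D1:**
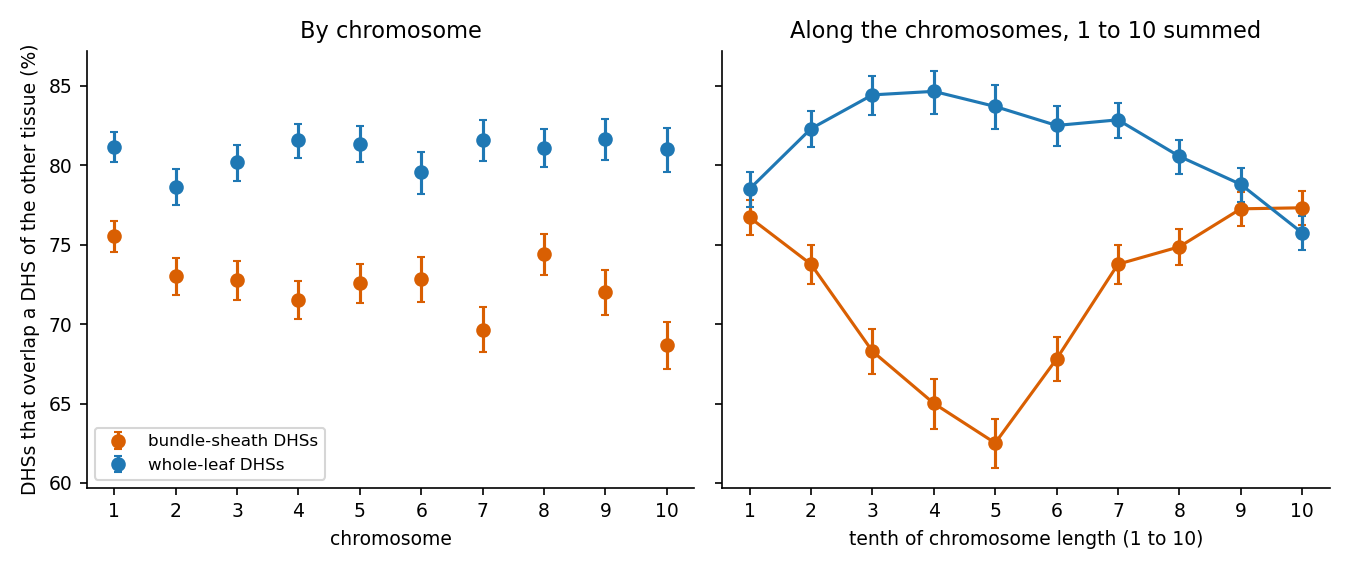
Share of DHSs that overlap a DHS of the other tissue, in percent, by chromosome (left) and by position in 10 equal segments of chromosome length (right), with 95% Wilson intervals as bars. Whole-leaf shares lie above bundle-sheath shares on each chromosome, and toward the middle of the chromosomes the bundle-sheath share falls to 62.5% while the whole-leaf share rises to 84.7%.

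Along the chromosomes the shares of the 2 tissues moved in opposite directions. Each chromosome was divided into 10 segments of equal length, taking its last DHS as its end. In bundle sheath the matched share was 76.7% in the first segment, fell to 62.5% (60.9% to 64.1%) in segment 5 and rose to 77.3% in segment 10. In whole leaf it was 78.5% in the first segment, rose to 84.7% (83.3% to 86.0%) in segment 4 and was 75.8% in segment 10. Segments 5 and 6 of each chromosome were then set against the outer segments 1, 2, 9 and 10. The bundle-sheath share was lower in the middle on 10 of 10 chromosomes, with differences between -3.72 percentage points on chromosome 10 and -19.6 on chromosome 5. The whole-leaf share was lower in the middle on 0 of 10 chromosomes, and was higher there by 0.685 percentage points on chromosome 2 to 10.3 on chromosome 5.

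The numbers behind these shares moved differently in the 2 tissues. Unmatched bundle-sheath DHSs numbered 1241 to 1399 in each segment and were thus nearly evenly spread. Matched bundle-sheath DHSs numbered 4529 in segment 10 but 2306 in segment 4. Matched whole-leaf DHSs numbered 4530 and 2301 in those segments, and unmatched whole-leaf DHSs, which fell more steeply, 1450 and 417. For each unmatched whole-leaf DHS there were 3.12 unmatched bundle-sheath DHSs in segment 5 and 0.916 in segment 10. Fold enrichment of paired DHSs was also higher in the middle, with medians of 9.39 in bundle sheath and 11.1 in whole leaf in segment 5 compared with 8.34 and 9.89 in segment 10.

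Matched DHSs mostly paired off. A total of 31742 bundle-sheath DHSs had a single whole-leaf counterpart that touched no other, which is 90.1% of matched bundle-sheath and 90.3% of matched whole-leaf DHSs. Splits were about as common one way as the other. In 1004 cases 1 bundle-sheath DHS spanned several whole-leaf DHSs, 2031 in all, and in 1058 cases 1 whole-leaf DHS spanned several bundle-sheath DHSs, 2152 in all. The spanning DHSs were wide, with medians of 4132 bp in bundle sheath and 4037 bp in whole leaf, while the DHSs they spanned had medians of 1675 and 1709 bp. In a further 162 clusters several DHSs of each tissue were linked. The values below are for the 31742 one-to-one pairs.

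The width of a paired DHS was nearly the same in both tissues at the median but varied widely from pair to pair. Median widths were 1968 bp in bundle sheath and 1912 bp in whole leaf. The median difference within a pair was 9 bp toward bundle sheath (95% interval from order statistics 7 to 12 bp), and the middle 50% of pairs ran from -108 to 174 bp. The difference without regard to sign had a median of 136 bp. The bundle-sheath DHS was the wider one in 52.3% of pairs and the whole-leaf DHS in 47.5%. By chromosome the median difference ran from -10 bp on chromosome 10, where 47.2% were wider in bundle sheath, to 37 bp on chromosome 7, where 57.9% were. It was above 0 on 9 of 10 chromosomes.

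Large differences in width were few and slightly more frequent toward bundle sheath. The bundle-sheath DHS was at least 2 times as wide in 912 pairs, 2.87% of 31742, and the whole-leaf DHS in 699 pairs, 2.2%. Among the former the DHSs had median widths of 2837 bp in bundle sheath and 1070 bp in whole leaf, and in 62.8% the bundle-sheath DHS held a DGF, compared with 83.7% of all pairs. Among the latter the medians were 982 and 2629 bp, and 58.5% held a whole-leaf DGF, compared with 61.5% of all pairs. Chromosome 7 had the highest share of pairs at least 2 times as wide in bundle sheath, 3.63%, and the lowest share of pairs at least 2 times as wide in whole leaf, 1.60%.

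Both edges lay within 250 bp of each other in 64.9% of pairs. The left edge, at the lower coordinate, was displaced by a median of -5 bp in bundle sheath relative to whole leaf, with the middle 50% from -84 to 57 bp. For the right edge the median was -3 bp and the middle 50% ran from -50 to 54 bp. Right edges lay within 50 bp of each other in 49.3% of pairs and left edges in 40.3%. Both edges were within 100 bp in 41.6% of pairs, and identical in 3 pairs. The bundle-sheath DHS lay inside the whole-leaf DHS in 26.1% of pairs and the reverse held in 26.5%. In the remainder both edges moved the same way, to lower coordinates in 26.0% and to higher coordinates in 21.4%. At the median pair, the shared stretch made up 90.03% of the combined extent of both DHSs.

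**Figure D2:**
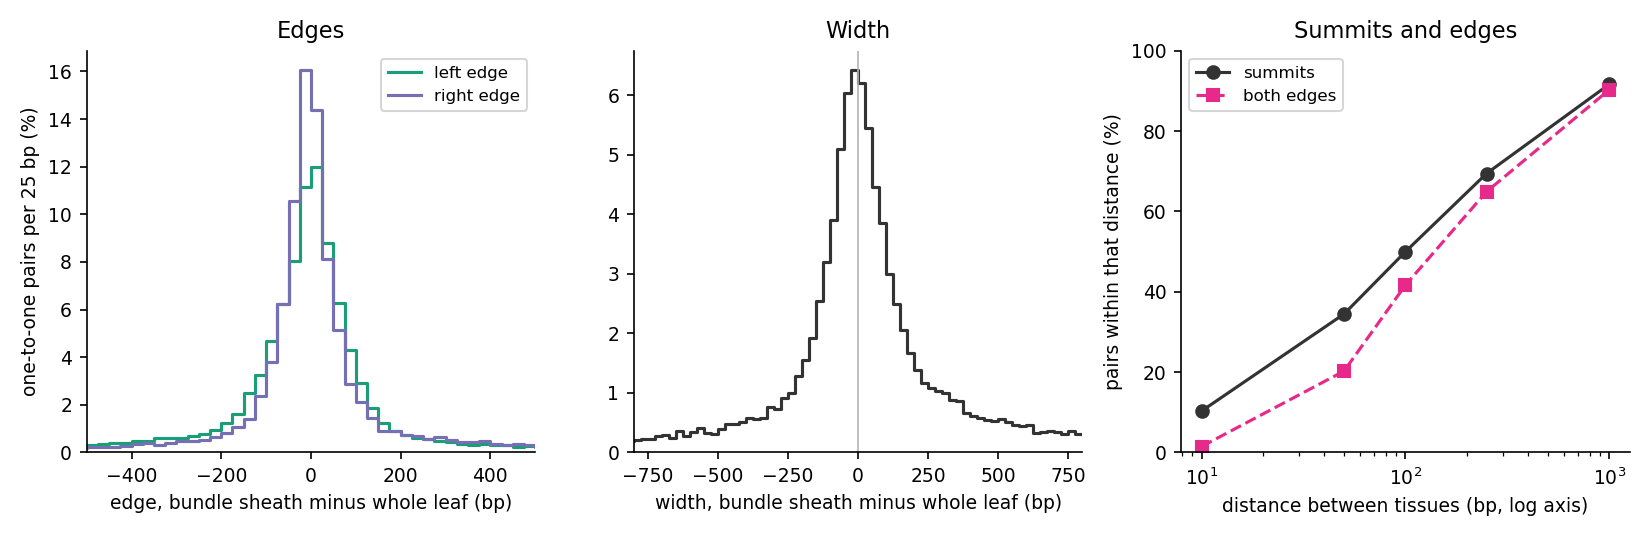
Displacement of the left and right edge (left) and of the width (middle), bundle sheath minus whole leaf in bp, as the percent of 31742 one-to-one pairs per 25 bp, and the cumulative percent of pairs whose summits or both edges lie within a given distance on a log axis (right). Displacements center near 0, with medians of -5, -3 and 9 bp, and at 100 bp the curves reach 50.0% for summits and 41.6% for both edges.

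The summit of a DHS is the position of strongest cutting within it. Summits of the 2 tissues lay a median of 101 bp apart (98 to 103 bp), with the middle 50% of pairs from 31 to 328 bp. They were within 10 bp in 10.3% of pairs, within 50 bp in 34.5%, within 250 bp in 69.4% and within 1000 bp in 91.7%. The same base was the summit in 226 pairs, or 0.712%. By chromosome the median distance ran from 94 bp on chromosome 6 to 108 bp on chromosomes 3 and 7. The bundle-sheath summit fell inside the whole-leaf DHS in 99.3% of pairs, and the whole-leaf summit inside the bundle-sheath DHS in 99.4%. In both tissues the median summit lay close to the center, at 49.5% of the width in bundle sheath and 49.4% in whole leaf.

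Summits were farther apart in wide and in low-ranked DHSs. When pairs were divided into 4 groups of equal size by whole-leaf width, the median distance was 54 bp in the narrowest group, 93 and 139 bp in the next 2, and 212 bp in the widest, from 3011 bp upward. The median whole-leaf widths of these 4 groups were 873, 1516, 2390 and 4025 bp. A wider DHS leaves more room between summits, and distances were not scaled to width. From the lowest to the highest 10% of whole-leaf ranks the median distance fell from 133 to 62 bp. In the highest 10% of bundle-sheath ranks it was 83 bp.

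Ranks in the 2 lists were related but often far apart. Over the 31742 pairs the Spearman correlation between the percentile rank in bundle sheath and that in whole leaf was 0.596. It is given as a description of pairs that share a genome and a laboratory, not as a test. By chromosome it ran from 0.566 on chromosome 4 to 0.625 on chromosome 5. The rank differed between tissues by a median of 15.2 points without regard to sign. With sign, bundle sheath minus whole leaf, the median was 0.883 points and the middle 50% of pairs ran from -13.3 to 17.0 points.

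A rise of at least 25 points in bundle sheath was found in 5546 pairs, 17.5% of 31742, and a fall of that size in 4250 pairs, 13.4%. Ranks were taken in lists of unequal length, and the unmatched DHSs, mostly of low rank, lift paired DHSs more in the longer list. With ranks taken among the pairs alone the numbers were nearly even, 5082 and 4913, and the median change was -0.515 points. The share that rose ran from 16.4% on chromosome 5 to 18.6% on chromosome 8, and the share that fell from 11.9% on chromosome 7 to 15.2% on chromosome 10. The pairs ranked higher in bundle sheath were also the wider ones there in 62.9% of cases, with a median width difference of 56 bp. Those ranked higher in whole leaf were wider in bundle sheath in 44.3% of cases, with a median of -22 bp. Their fold enrichments had medians of 9.53 in bundle sheath and 8.04 in whole leaf for pairs that rose, and 7.05 and 11.4 for pairs that fell.

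**Figure D3:**
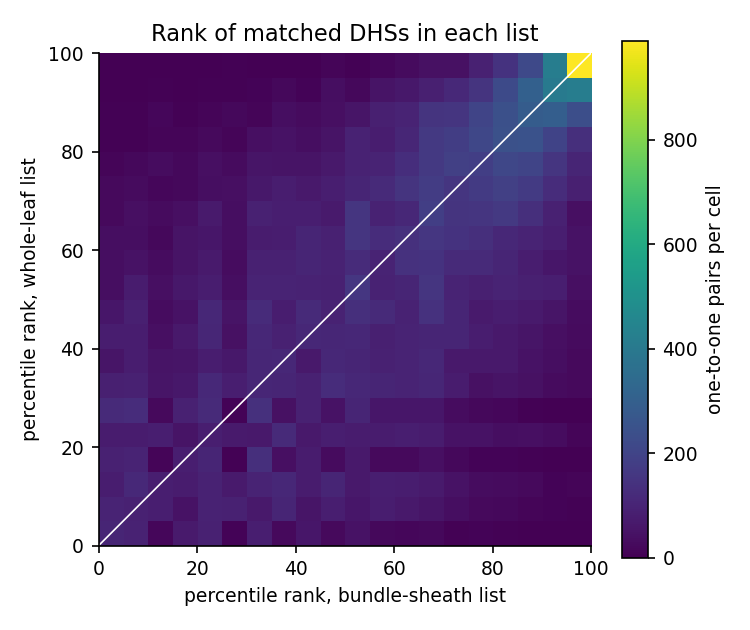
Number of one-to-one pairs by percentile rank in the bundle-sheath list (horizontal) and the whole-leaf list (vertical), in cells of 5 by 5 points, with the diagonal drawn as a line. Pairs crowd in the upper right corner, where both ranks are high, and spread widely about the diagonal elsewhere, with a Spearman correlation of 0.596 over all pairs.

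DGFs were about 2.02 times as dense in bundle sheath as in whole leaf within the same open sites. The 31742 pairs held 130787 bundle-sheath DGFs and 62911 whole-leaf DGFs, or 1.75 and 0.863 per kb of DHS. The mean was 4.12 DGFs per bundle-sheath DHS and 1.98 per whole-leaf DHS. On each chromosome the bundle-sheath value was higher. It ran from 1.69 per kb on chromosome 10 to 1.78 on chromosome 5, and the whole-leaf value from 0.808 on chromosome 10 to 0.892 on chromosome 7. The ratio ran from 1.99 on chromosome 6 to 2.09 on chromosome 10.

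This order depended on the score a DGF needed in order to count. Wellington scores are negative, and a lower score marks a stronger footprint. Both lists end near -5. Paired DHSs had a median DGF score of -7.55 in bundle sheath and -9.14 in whole leaf. The bundle-sheath list thus held more DGFs with weaker scores. Scores of this kind move with the number of reads, which was not used here. At a score of -8 or below there were 0.688 DGFs per kb in bundle sheath and 0.592 in whole leaf. At -9 or below the order was turned, with 0.362 and 0.449. At -10 or below the values were 0.183 and 0.321, a ratio of 0.568, and at -15 or below they were 0.0058 and 0.0502. When the bundle-sheath list was limited to its 79378 strongest DGFs, the number in the whole-leaf list, the densities were 0.874 and 0.863 per kb, a ratio of 1.01. Equal lengths bring the densities close together largely by construction, as paired DHSs were of similar width and held most DGFs of either list. In the 17966 pairs with DGFs in both tissues the strongest DGF scored lower in whole leaf in 64.7% (64.0% to 65.4%), with medians of -10.8 in whole leaf and -9.49 in bundle sheath.

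The DGF lists also differed in their numbering and in where DGFs lay. DGFs carry running numbers, and 9.29% of the numbers spanned by the bundle-sheath list are absent from it, compared with 29.9% in whole leaf. The whole-leaf numbers start at 32407 although that list has 43868 DHSs, whereas the bundle-sheath numbers start at 48889, directly after its 48888 DHSs. All bundle-sheath DGFs fell inside bundle-sheath DHSs, while 2.09% of the whole-leaf ones lay outside whole-leaf DHSs. By the study's own account, sequencing did not saturate the footprints of maize and a maize library was of low complexity. The part of depth, of the numbers absent and of the DHS list in the ratio of 2.02 was not tested.

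**Figure D4:**
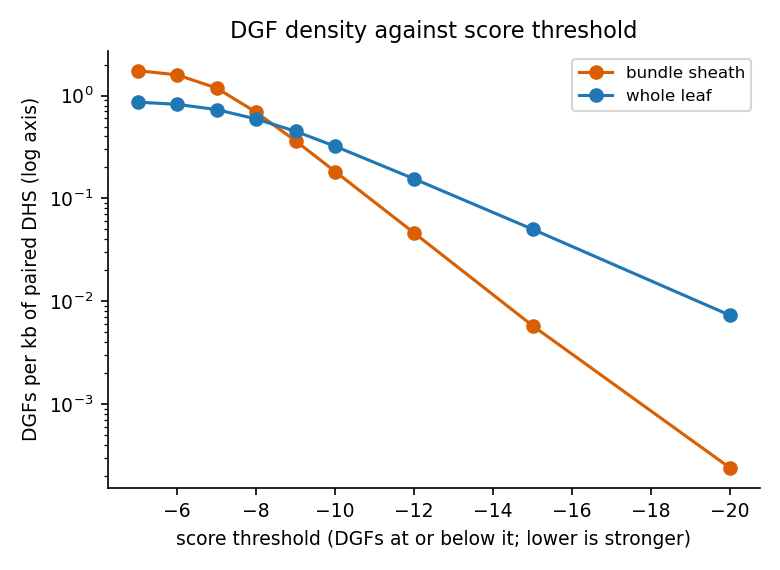
DGFs per kb of paired DHS (log axis) that score at or below the threshold on the horizontal axis, where a lower score is a stronger footprint, in bundle sheath and whole leaf. The curves cross between -8 and -9, bundle sheath lying above at weaker thresholds and whole leaf at stronger ones.

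The ratio of bundle-sheath to whole-leaf DGF density fell as whole-leaf rank rose. Whole-leaf ranks and whole-leaf DGFs come from the same reads, so they are not independent measures. In the highest 10% of whole-leaf ranks there were 1.92 DGFs per kb in bundle sheath and 1.31 in whole leaf, a ratio of 1.46. In the lowest 10% the values were 1.53 and 0.200, a ratio of 7.68. The bundle-sheath density thus changed less across whole-leaf ranks than the whole-leaf density, which rose at each step. The ratio fell in the same direction under the other DGF lists, which were drawn from the same calls, although its level did not hold. With lists of equal length it went from 3.54 in the lowest 10% of whole-leaf ranks to 0.828 in the highest, and at scores of -10 or below from 1.86 to 0.455. By bundle-sheath rank, with all DGFs, the ratio moved less, from 2.31 in the lowest 10% to 1.75 in the highest. Bundle-sheath density was not ordered by bundle-sheath rank at the low end, with 1.63 per kb in the lowest 10% of ranks, 1.40 in the next and 1.98 in the highest. Over the whole bundle-sheath list, unmatched DHSs included, these steps of fold enrichment held 1.44, 0.986 and 1.98 per kb. Ranked by the -log10 p-value instead, the whole bundle-sheath list was ordered throughout, from 0.303 to 1.96 DGFs per kb. The whole-leaf list ranked in this way was ordered from 0.0552 to 1.37.

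**Figure D5:**
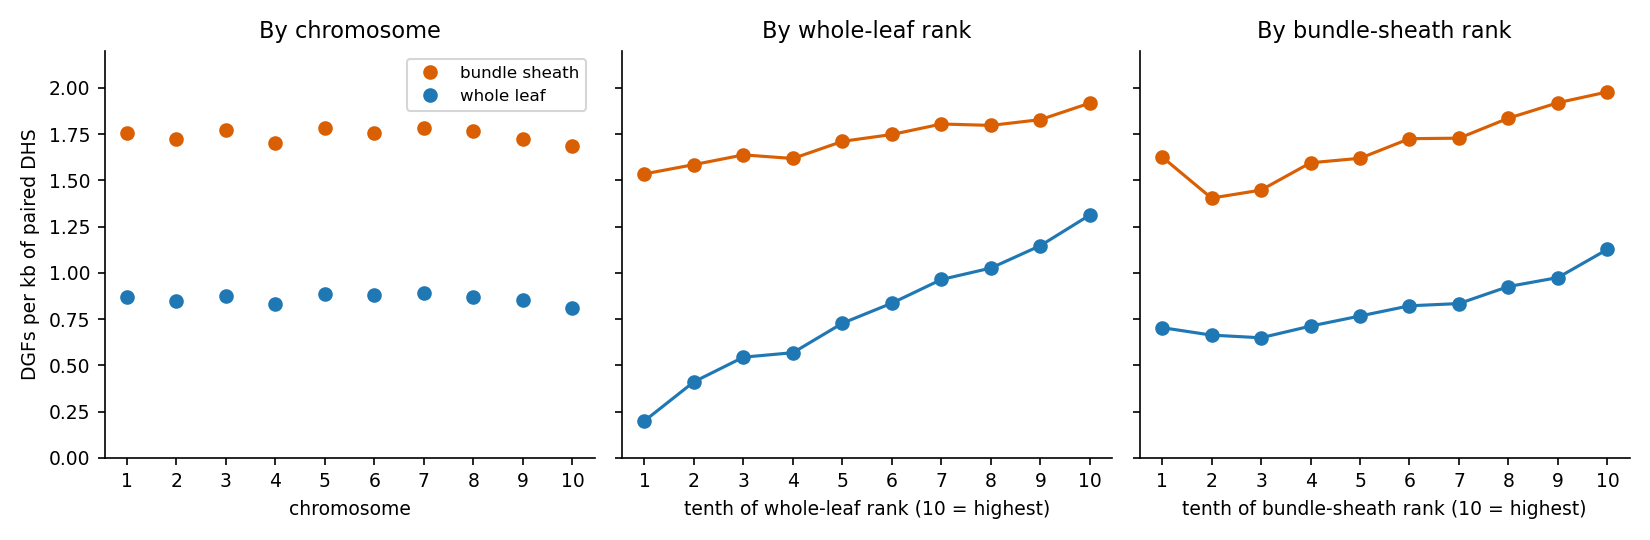
DGFs per kb of paired DHS in bundle sheath and whole leaf by chromosome (left), by 10% steps of whole-leaf rank (middle) and by 10% steps of bundle-sheath rank (right). Bundle sheath lies above whole leaf throughout, and the gap narrows from 1.53 and 0.200 at the lowest whole-leaf ranks to 1.92 and 1.31 at the highest.

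Whole-leaf DGF density was lowest where the rank rose most in bundle sheath, which is also where whole-leaf ranks were lowest. Pairs were divided into 5 groups of nearly equal size by rank change. In the group whose rank fell most in bundle sheath, with changes of -17.4 points or below, whole-leaf DHSs held 0.986 DGFs per kb. In the next 2 groups they held 0.991 and 1.03, so that density did not fall over the first 3 groups. It was 0.815 in the group after these, and 0.447 in the group whose rank rose most, by at least 22.0 points. From the group whose rank fell most to the group whose rank rose most, bundle-sheath DHSs held 1.60, 1.75, 1.82, 1.79 and 1.75 per kb. Ranks changed least in the middle group. A large rise in rank selects low whole-leaf ranks by construction. In the same order of groups the median whole-leaf ranks were 67.5, 71.1, 76.1, 54.5 and 30.6. The whole-leaf densities thus followed whole-leaf rank and are not a separate result about rank change. Rank and DGFs of a tissue come from the same reads and are not independent measures.

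With all DGFs counted, most pairs had more in bundle sheath. The bundle-sheath DHS held more DGFs in 66.3% of pairs, fewer in 14.0% and the same number in 19.7%. With DGF lists of equal length it held more in 35.5% and fewer in 34.3%, shares that equal lengths bring close together by construction. At scores of -10 or below the bundle-sheath DHS held more in 15.4% and fewer in 27.6%. DGFs were present in both tissues in 56.6% of pairs, in bundle sheath only in 27.1%, in whole leaf only in 4.93% and in neither in 11.3%. At least 5 bundle-sheath DGFs faced none in whole leaf in 2866 pairs, 9.03% of 31742. Their median ranks were 59.1 in bundle sheath and 37.6 in whole leaf. A minimum count favors wide DHSs, and their median widths were 3022 and 2702 bp, compared with 1968 and 1912 bp over all pairs. By contrast, at least 5 whole-leaf DGFs faced none in bundle sheath in 58 pairs, or 0.183%. Their median ranks were 56.8 in bundle sheath and 75.7 in whole leaf, and their median widths 2971 and 2738 bp. Of the same 31742 pairs, 491 and 224 met these limits with DGF lists of equal length, and 29 and 200 at scores of -10 or below.

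DGFs of the 2 tissues seldom fell on the same bases even within the same DHS. Of the bundle-sheath DGFs in pairs, 9.01% shared 1 bp or more with one called in whole leaf, and of the whole-leaf DGFs 18.7% did so with one called in bundle sheath. In pairs with DGFs in both tissues the shares were 12.2% and 19.7%. These shares depend on how many DGFs were called in the other tissue, and no chance level was computed. Exactly the same extent was called in both tissues 200 times. At least 1 overlap was present in 8632 of the 17966 pairs with DGFs in both tissues, or 48.0% (47.3% to 48.8%). Nearly all DGFs lay in the stretch shared by both DHSs, 97.5% in bundle sheath and 98.5% in whole leaf. Their median distance from the summit of their own tissue was 351 bp in bundle sheath and 293 bp in whole leaf. DGFs of 25 bp, the longest length called, made up 56.2% in bundle sheath and 64.3% in whole leaf.

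The most open pairs held similar ranks in both tissues by construction, and their summits lay close together. They were chosen as the pair with the highest mean rank on each chromosome. On chromosome 1 the bundle-sheath DHS from 24792540 to 24793182 had a fold enrichment of 41.8, and its whole-leaf partner from 24792575 to 24793166 one of 46.4. Their summits were 2 bp apart and each held 2 DGFs. On chromosome 4 the DHS from 172453718 to 172454020 in bundle sheath had the highest fold enrichment of the bundle-sheath list on chromosomes 1 to 10, 51.0, compared with 40.9 for its whole-leaf partner from 172453694 to 172454019. Their summits were 7 bp apart and no DGF was called in either. On chromosome 7 the whole-leaf DHS from 121484771 to 121485904 had the highest fold enrichment of the whole-leaf list on chromosomes 1 to 10, 49.0, compared with 27.4 for the bundle-sheath DHS from 121485177 to 121485852. The summits were 3 bp apart, although the bundle-sheath DHS was narrower, 676 compared with 1134 bp. Of these 10 pairs the one on chromosome 4 alone had the higher fold enrichment in bundle sheath, and the summit distances ran from 2 to 50 bp. On chromosome 9 both DHSs were 1380 bp wide, from 144019390 in bundle sheath and 34 bp further along in whole leaf, and held 4 and 1 DGFs.

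The largest gains in rank were, as their size requires, at DHSs near the bottom of the whole-leaf list. On chromosome 9 the pair from 108750652 to 108752166 in bundle sheath and to 108752004 in whole leaf, with the same left edge, had fold enrichments of 13.8 and 6.50. Its rank was 95.02 points higher in bundle sheath, where it held 4 DGFs and in whole leaf none. On chromosome 10 the DHS from 40368396 to 40369275 in bundle sheath had a fold enrichment of 16.5, compared with 6.74 in whole leaf, a gain of 93.4 points. On chromosome 6 the DHS from 64800616 to 64800906 gained 93.1 points, with fold enrichments of 16.1 and 6.74 and summits 1 bp apart. The DHS on chromosome 8 from 97506713 to 97507181 gained 91.5 points, and that on chromosome 1 from 39605554 to 39607084 gained 91.2. In these 5 pairs 1 to 5 DGFs were called in bundle sheath and none in whole leaf.

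The 5 largest losses lay, as their size requires, near the bottom of the bundle-sheath list. On chromosome 6 the bundle-sheath DHS from 131607748 to 131608308 had a fold enrichment of 6.33, compared with 19.1 in whole leaf, which placed it 91.3 points lower, and each tissue had 1 DGF. On chromosome 4 the DHS from 163922545 to 163923393 had a fold enrichment of 6.27 in bundle sheath and 16.7 in whole leaf. Its whole-leaf partner was 3.50 times as wide, yet the summits were 8 bp apart. Also on chromosome 4, the DHS from 72872558 to 72874220 held no DGF in bundle sheath and 4 in whole leaf, with fold enrichments of 6.37 and 17.6. The remaining losses were -87.4 points on chromosome 9 (6562421 to 6562797) and -85.5 points on chromosome 4 (41224241 to 41225497).

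Extreme width ratios arose where a narrow DHS of one tissue lay within a broad DHS of the other. On chromosome 4 the bundle-sheath DHS from 19005214 to 19010293 was 5080 bp wide and its whole-leaf partner 356 bp, a ratio of 14.3, and neither held a DGF. Again on chromosome 4, the DHS from 224763302 to 224767149 was 9.50 times as wide in bundle sheath. On chromosome 7 the DHS from 28277501 to 28284646 was 8.81 times as wide and held 18 DGFs in bundle sheath and 3 in whole leaf. In the other direction the whole-leaf DHS on chromosome 7 from 80188831 to 80191883 was 10.0 times as wide as its partner of 305 bp. The whole-leaf DHS on chromosome 8 from 148611223 to 148618730 was 8.92 times as wide, and that on chromosome 1 from 237516710 to 237524838 was 8.62 times as wide. In the latter pairs the summits nevertheless lay 23 and 24 bp apart.

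The pairs with most DGFs in bundle sheath and none in whole leaf were broad, which a choice by number of DGFs favors. On chromosome 2 the bundle-sheath DHS from 172460362 to 172472388, 12027 bp wide, held 22 DGFs, while none was called in its whole-leaf partner of 9035 bp. Their fold enrichments were similar, 6.90 and 6.83, and the whole-leaf rank was low, at 8.20. The DHSs on chromosome 1 from 200892838 to 200899921 and on chromosome 5 (7362103 to 7369099) had 20 bundle-sheath DGFs each and none in whole leaf. The reverse was seen on chromosome 10, where the whole-leaf DHS from 90256582 to 90259713 held 8 DGFs and the bundle-sheath DHS from 90258051 to 90259640 none, although the summits were 8 bp apart. On chromosome 1 the whole-leaf DHSs from 98426050 to 98431986 and from 192307633 to 192310306 held 7 DGFs each, and their bundle-sheath partners none. Fold enrichment in those pairs was 15.4 and 13.4 in whole leaf, compared with 8.71 and 6.63 in bundle sheath.

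Summits lay farthest apart in DHSs of several kb, as distances of this size require. On chromosome 2, in the DHS from 50603664 to 50613950 in bundle sheath, the summits were 9141 bp apart, at 50604345 in bundle sheath and 50613486 in whole leaf. On chromosome 3 they were 8996 bp apart within DHSs of 10370 and 10262 bp, from 89048309 to 89058678 in bundle sheath, whose ranks of 88.9 and 86.0 were alike. On chromosome 1 from 238876076 to 238881082 in bundle sheath they were 8917 bp apart, and the whole-leaf DHS was 2.25 times as wide.

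The same measures in *S. bicolor* and *S. italica*, on their own assemblies, are given side by side and were not tested against maize. The matched share of bundle-sheath DHSs was 83.7% in *S. bicolor* and 77.6% in *S. italica*, and that of whole-leaf DHSs 74.1% and 79.4%. In *S. bicolor* the width differed by a median of -5 bp and the summits lay 62 bp apart. In *S. italica* these values were 127 and 47 bp, in DHSs narrower than those of maize. The correlation of ranks was 0.661 and 0.581. The ratio of DGF densities, bundle sheath over whole leaf, was 0.993 in *S. bicolor* and 1.08 in *S. italica*, compared with 2.02 in maize. The share of DGF numbers absent from the bundle-sheath and the whole-leaf list was 63.8% and 74.1% in *S. bicolor* and 67.6% and 80.8% in *S. italica*. Those species had 3 whole-leaf samples rather than 2.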

How the data were processed

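DNaseI-seq of 2 bundle-sheath and 2 whole-leaf samples of *Z. mays* was compared. The authors mapped reads with Bowtie2 to AGPv3 (B73 RefGen_v3), filtered them with SAMtools, called DHSs with MACS2, set list length by the irreproducible discovery rate, and called DGFs with Wellington on pooled reads. The methods describe a further filter against naked DNA, whose values the lists used here do not carry. The deposited DHS lists give a fold enrichment (a ratio over background), a -log10 p-value and a summit offset per DHS, and the deposited DGF lists give a Wellington score per DGF. Lists of tissue-enriched DGFs hold the authors' own comparison and were not used. Tool versions are not given in the sources used here.

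DHSs on chromosomes 1 to 10 were matched at an overlap of at least 1 bp. One-to-one pairs overlap a single DHS each way. Ranks are percentiles of fold enrichment within a list of chromosomes 1 to 10. A DGF belongs to the DHS that holds its midpoint, and density is total DGFs over total DHS length. With 1 pooled list per tissue no test was run, and precision is given as 95% Wilson or order-statistic intervals, which cover counting error only. The lists carry no read numbers, and the read totals in the study's text were not used here. The members, measures and named regions were chosen with earlier results of these data known. Named regions are the one-to-one pairs with the 5 largest gains and 5 largest losses of rank, the 3 largest and 3 smallest width ratios, the 3 with most bundle-sheath DGFs and none in whole leaf and 3 the other way, the 3 with summits farthest apart, and the highest mean rank on each chromosome. Alternatives changed the overlap, the pairs, the rank column and the DGFs counted. Positions are 1-based. Python 3.11.15, pandas 2.3.3, NumPy 2.4.6, SciPy 1.17.1 and matplotlib 3.10.9 were used. The code was tested on simulated lists, and 6 of 6 overlap counts equaled those of BEDTools 2.31.1.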

Additional observations from a re-analysis of the deposited data

Results flagged for a closer look

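DHSs and DGFs were also called outside chromosomes 1 to 10, on sequences left out of the comparison. They are given as counts, with no control to set them against. The mitochondrial sequence held 73 DGFs in bundle sheath and 72 in whole leaf, in 10 DHSs each. The plastid sequence held 15 DGFs in 4 bundle-sheath DHSs and 20 in 5 whole-leaf DHSs. Unplaced sequences held 578 DGFs in 327 bundle-sheath DHSs and 317 in 314 whole-leaf DHSs. The mitochondrial counts were thus nearly equal, and the plastid count was lower in bundle sheath. Chromosomes 1 to 10 held 164252 bundle-sheath and 79378 whole-leaf DGFs, and unplaced sequences also held more in bundle sheath. The cause was not tested.

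On chromosomes 1 to 10, 1660 whole-leaf DGFs lay outside every whole-leaf DHS, at a median of 5412 bp from the nearest, and 652 of them lay inside a bundle-sheath DHS. Their median score was -9.16, the same as that of the whole-leaf list. No bundle-sheath DGF lay outside a bundle-sheath DHS.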

How the results depend on the processing

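Of 32 alternatives 9 left the value close to that reported, 20 moved it and 3 reversed it, and 7 of the 32 were chosen after seeing the data. Requiring overlap of 50% of both DHSs lowered the matched share to 65.2% in bundle sheath and 72.7% in whole leaf. With the top 50% of each list the shares were 68.1% and 75.6%, and with the bundle-sheath list cut to the length of the whole-leaf list 74.9% and 75.2%. In the top 50% of both lists (14750 pairs) the width difference was 3 bp and the summit distance 86 bp. Over all overlapping pairs the summit distance was 116 bp, the rank correlation 0.553 and the absolute rank change 15.8 points. Ranked by -log10 p-value the last 2 were 0.570 and 15.7, and ranked among the pairs of each chromosome the rank change was 15.6. The ratio of DGF densities was 2.06 in the shared stretch, 2.10 with the stronger 50% of each DGF list and 1.01 with DGF lists of equal length. Taking the stronger 50% keeps the ratio of the list lengths, and equal lengths remove it. Both values thus follow largely from list length. Under alternatives chosen after seeing the data, the density ratio was 1.73 in the top 50% of both lists and reversed to 0.568 at scores of -10 or below. Other alternatives chosen after seeing the data also turned on the DGFs counted. The share of pairs with more DGFs in bundle sheath, 35.5% with lists of equal length, reversed to 15.4% at scores of -10 or below, where fewer were found in 27.6%. Of 31742 pairs, those with at least 5 bundle-sheath DGFs and none in whole leaf numbered 491 and then 29. The latter number was below the 200 of the other direction. The cause was not tested. No paired analysis was possible because the replicates were pooled before deposit, so neither replicate blocks nor leaving out a replicate could be tried. Pooling without per-replicate lists, read numbers not used and the lack of an annotation limit all values.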

Other observations

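Changes in rank were almost uncorrelated between neighboring pairs along the chromosomes. The Pearson correlation of the rank change between adjacent one-to-one pairs was 0.0195 over 31732 adjacencies, and 0.00777 between pairs 5 apart. It is given as a description across regions, which share their libraries. In windows of 5 Mb with at least 30 pairs, 404 in all, the median rank change, bundle sheath minus whole leaf, had a middle 50% from -0.931 to 3.07 points. The lowest window lay on chromosome 3 from 215000001 to 220000000, at -8.51 points over 107 pairs. The highest lay on chromosome 9 from 70000001 to 75000000, at 11.2 points over 33 pairs, and a window on chromosome 2 from 185000001 to 190000000 with 105 pairs was at 10.1 points. These windows were chosen after their values were seen, and no chance level was computed for them or for the correlations.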
